A study of Mus musculus with 28 samples.

Results

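The subject is how 5-hydroxymethylcytosine (5hmC) and 5-methylcytosine (5mC) share the genome of wild-type (WT) bone marrow progenitors. Of the 28 samples of the series, 4 were chosen by their titles: the 2 WT libraries of 5hmC and the 2 WT libraries of 5mC, read on chromosomes 1 to 19. All 4 came from young C57BL/6 mice, 6 to 10 weeks old, with no deleted Tet gene, and the cells were bone marrow LK cells, as labelled. LK is a name in common use for lineage-negative, Kit-positive progenitors, a population that mixes myeloid, erythroid and megakaryocyte precursors. A further 7 peak lists, of Tet2KO mice and of DKO mice lacking both Tet1 and Tet2, serve below as a comparison, and the other 17 samples are RNA-seq libraries not analysed here. Peak lists hold no expression values, so the identity of the LK cells was not checked against marker genes.

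5mC is the methyl mark that DNA methyltransferases place, in mammals mostly on CpG. TET dioxygenases oxidise it to 5hmC, which is therefore made at the expense of 5mC at the same cytosine and is both an intermediate of demethylation and a mark that can persist. In blood cells 5hmC is best known in the bodies of active genes and around enhancers, while most CpGs of the genome carry 5mC. 5hmC was captured here through selective chemical labelling of the mark (hMe-Seal), and 5mC by immunoprecipitation with an antibody (MeDIP-seq). Mark and assay thus change together in these lists. Differences between the marks below, in width, spacing, coverage or bins, cannot be told apart from differences between the assays. Both give enrichment over stretches of DNA and not the state of single cytosines: a peak of each mark at the same place can come from neighbouring cytosines, from the 2 alleles or from different cells of the mixture. In such bulk samples, fewer cells that carry a mark and less of the mark per cell cannot be told apart.

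The lists were of similar length. On the autosomes the 5hmC libraries had 128026 and 134816 peaks, and the 5mC libraries had 125448 and 139297. The score that the authors deposited with each peak had a median of 93.7 and 92.8 in the 5hmC lists and of 95.6 and 97.9 in the 5mC lists. The number of reads behind the lists is not given in the sources used here, so the depth is unknown. Replicates of a mark repeated each other: 79.2% and 76.7% of the peaks of a 5hmC library overlapped a peak of the other, and 76.5% and 69.8% of the peaks of a 5mC library did. Regions called in both libraries numbered 96539 for 5hmC, with a median of 885 bp, and 94795 for 5mC, with a median of 383 bp. These regions are the reference for each mark below.

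The marks differed in the size of their peaks. The median 5hmC peak measured 729 bp and 682 bp in the 2 libraries, and the median 5mC peak 321 bp and 283 bp, so that 5hmC peaks were 2.34 times as wide and the libraries of the marks did not overlap. Over 1 kb wide were 25.3% and 20.9% of 5hmC peaks, against 0.662% and 0.440% of 5mC peaks. With nearly equal numbers of peaks, 5hmC covered 111.4 Mb and 108.8 Mb, and 5mC 44.1 Mb and 43.6 Mb, a ratio of 2.51. The widest 5hmC peak of replicate 1 ran over 14346 bp on chromosome 8 from 123069585 to 123083930 (build mm9), and replicate 2 had its widest, of 11904 bp, in the same place. The widest 5mC peaks were 6044 bp, on chromosome 15 from 76006766 to 76012809, and 3967 bp, on chromosome 17 from 39979888 to 39983854. A comparison of 2 libraries with 2 cannot give an exact two-sided permutation p below 0.333. Median width, the share over 1 kb and covered length reached that value (adjusted p = 0.370 over 10 quantities). The same held for the median gap, its ratio to the mean gap, gaps under 1 kb and peaks in runs of 5 or more. The other measures of runs and gaps given below were not tested. The number of peaks gave an exact permutation p of 1.

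**Figure D1:**
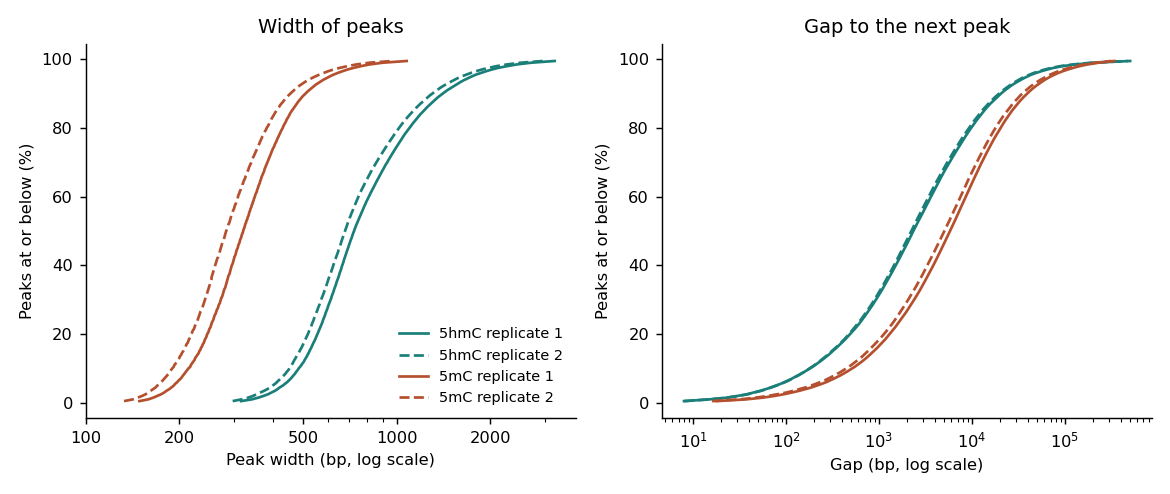
Cumulative share of peaks (%) by peak width (left) and by gap to the next peak of the same list (right), both in bp on a log scale, for the 2 WT libraries of each mark (solid, replicate 1; dashed, replicate 2). 5hmC lies to the right of 5mC in width and to its left in spacing, with little distance between replicates.

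Peaks of 5hmC were also packed more closely. The median gap from the end of a peak to the start of the next was 2342 bp and 2231 bp for 5hmC and 5805 bp and 5052 bp for 5mC. Because the mean gap was similar in the 4 lists (16945 to 18870 bp), the ratio of median to mean gap measures clustering apart from peak number. It was 0.132 ± 0.000073 for 5hmC (SD, n = 2) and 0.302 ± 0.00741 for 5mC (SD, n = 2), the lower value meaning the more uneven spread. Gaps under 1 kb made up 31.8% ± 0.526 of 5hmC gaps (SD, n = 2) and 17.4% ± 1.28 of 5mC gaps (SD, n = 2).

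Seen as runs, in which peaks less than 5 kb apart were joined, 54.7% and 56.2% of 5hmC peaks stood in runs of 5 or more, against 24.6% and 28.7% of 5mC peaks. Runs of 20 or more held 16.0% and 17.3% of 5hmC peaks and 1.56% and 2.45% of 5mC peaks. The longest 5hmC run of replicate 1 held 111 peaks over 255.0 kb on chromosome 10 from 82406810 to 82661824. That of replicate 2 held 114 peaks over 257.1 kb on chromosome 8 from 122753796 to 123010862, close to the widest 5hmC peaks. The longest 5mC runs were shorter, with 64 peaks over 115.2 kb on chromosome 5 from 116296168 to 116411333 in replicate 1 and 53 peaks over 80.6 kb on chromosome 11 from 117886227 to 117966833 in replicate 2.

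At the other end of the scale, 5hmC left long stretches empty. Stretches over 1 Mb without a peak in either 5hmC library numbered 352 and added up to 827.1 Mb, or 33.5% of the length examined, which is the sum of the positions of the last peak on each autosome. For 5mC there were 19, with 41.6 Mb or 1.68%. The longest without 5hmC was 12.2 Mb on chromosome 15 from 12856153 to 25065090, and it held 122 and 118 peaks of the 5mC libraries. The next, of 10.7 Mb on chromosome 1 from 109489621 to 120208252, held 33 and 41. The 5mC peaks in such stretches were sparse, yet present in both libraries. By contrast, the 6 longest stretches without 5mC, from 7.30 Mb on chromosome 7 (39164628 to 46467284) down to 2.17 Mb on chromosome 1 (85336937 to 87504123), held no 5hmC peak in either library. Whether reads could be placed in them was not tested.

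The direct question was how often the marks were called in the same place. Of the 5hmC peaks, 19.1% and 17.7% in the 2 libraries lay on a 5mC region, a mean of 18.4% ± 0.929 (SD, n = 2). Of the 5mC peaks, 22.5% and 22.9% lay on a 5hmC region, a mean of 22.7% ± 0.239 (SD, n = 2). The exact 95% binomial intervals (18.8 to 19.3%, 17.5 to 17.9%, 22.3 to 22.7% and 22.6 to 23.1%) cover counting error alone. Most peaks of either mark were thus called without the other: of the 5hmC regions present in both libraries, 68.4% had no peak of either 5mC library, and of the 5mC regions present in both, 68.2% had no 5hmC peak.

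To learn how much overlap the arrangement of the peaks gives by itself, all peaks of a library were moved by fixed distances along the chromosome, which keeps their width and clustering. Moved by 100 to 1000 kb to either side (8 moves), 9.25% of 5hmC peaks fell on 5mC and 11.01% of 5mC peaks on 5hmC. In place the overlap was 1.99 ± 0.0256 times that value for 5hmC (SD, n = 2) and 2.06 ± 0.0450 times for 5mC (SD, n = 2). In the 4 pairings of a single 5hmC with a single 5mC library the ratio was 1.95 to 2.04 for 5hmC peaks, while for replicates it was 4.23 within 5hmC and 10.7 within 5mC. The marks coincided beyond their placement at this scale and far less than repeats of 1 mark. These comparisons describe the lists and carry no p-value.

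The overlap fell steeply at first as the peaks were moved. A move of 1 kb brought the share of 5hmC peaks on 5mC from 18.4% to 12.9%, and that of 5mC peaks on 5hmC from 22.7% to 16.0%. From there it declined slowly, to 11.9% and 14.4% at 10 kb, 10.6% and 12.6% at 100 kb, 7.76% and 9.18% at 1000 kb and 5.55% and 6.68% at 5000 kb. The ratio of in place to moved was therefore 1.43 against a move of 1 kb and 3.32 against a move of 5000 kb for 5hmC peaks. The smallest moves did not lower the overlap: at 0.2 kb it stood at 19.0% and 23.1%, above the value in place in all 4 libraries.

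**Figure D2:**
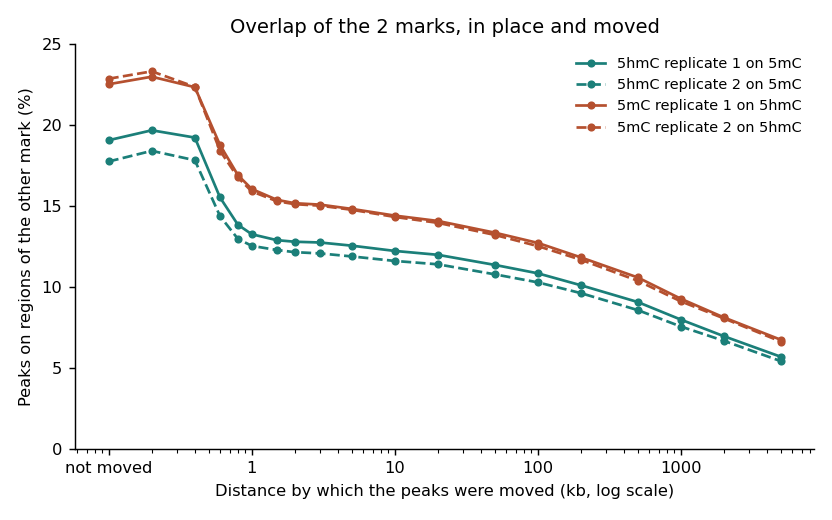
Share of the peaks of each WT library that overlap a region of the other mark (%, y axis) when left in place and when moved along the chromosome by 0.2 to 5000 kb (x axis, log scale, mean of both directions). The share rises slightly at 0.2 kb, drops by 1 kb (12.9% for 5hmC and 16.0% for 5mC) and declines slowly thereafter.

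The position of 5mC within and beside 5hmC peaks was then described, a comparison added after the data had been seen. The base in the centre of a 5hmC peak lay in a 5mC region in 12.2% and 11.7% of peaks. Going outward, coverage fell to a minimum of 4.03% in each library at 600 bp from the centre and rose again to 4.55% and 4.46% at 2 kb. Measured from the edges of the peaks, the minimum was deeper. In replicate 1, 2.60% of positions 100 bp outside an edge lay in 5mC against 4.53% at 2 kb, and in replicate 2, 2.71% against 4.47%. The ratio was 0.591 ± 0.0226 (SD, n = 2). Positions further out fall more often in another 5hmC peak, where 5mC is frequent, so the comparison was repeated over positions outside 5hmC. Outside the peaks of the same library, 2.44% and 2.56% lay in 5mC at 100 bp and 2.86% and 2.92% at 2 kb, a ratio of 0.865 ± 0.0152 (SD, n = 2). Outside the peaks of either 5hmC library it was 0.816 ± 0.0160 (SD, n = 2). The dip was thus shallower once positions in 5hmC were left out, and a difference remained in both libraries.

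Within 5hmC peaks at least 1000 bp wide, the outermost 10% of the width at either end was covered by 5mC to 5.97% and 6.18% in replicate 1, and the 5 segments around the middle, of 10% each, to between 12.9% and 13.3%. In replicate 2 the ends had 6.33% and 6.46%, and the middle 13.3% to 13.6%. Accordingly, 5mC peaks that met a 5hmC region mostly lay inside it: 22916 of 28246 in replicate 1 (81.1%) and 27133 of 31835 in replicate 2 (85.2%) did so entirely. After moves of 100 to 1000 kb the share was 54.3% ± 2.96, and after moves of 10 to 50 kb 55.0% ± 3.05, against 83.2% ± 2.90 in place (SD, n = 2 each). Against the peaks of 5hmC replicate 2 alone the share in place was 73.0%.

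**Figure D3:**
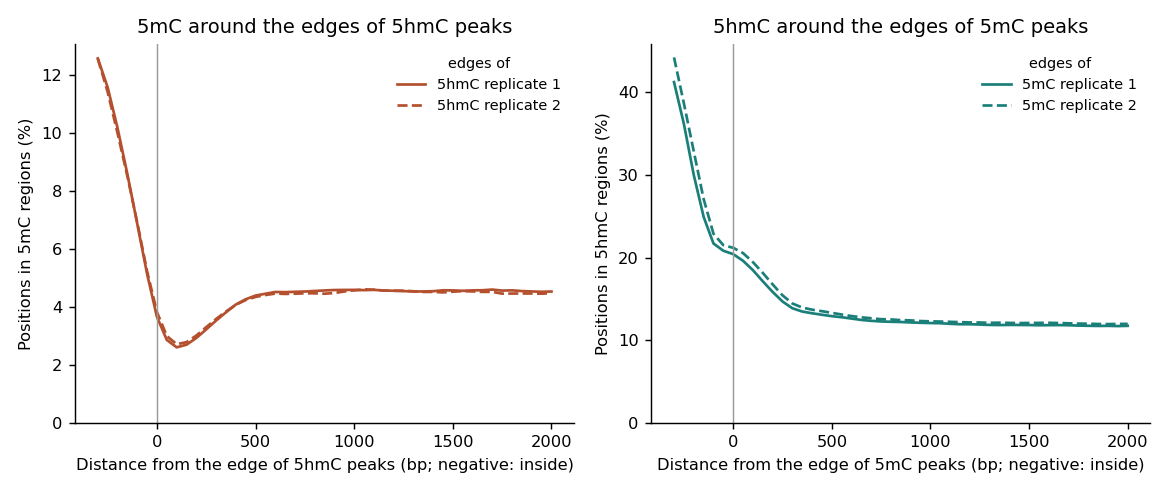
Share of positions in regions of the other mark (%, y axis, from 0) by distance from the edge of a peak in bp (x axis, negative inside), at 5hmC edges (left) and 5mC edges (right), for each WT library. Inside, only peaks wide enough to reach that depth enter. 5mC dips to 2.60% and 2.71% at 100 bp outside 5hmC edges (ratio to 2 kb 0.591), whereas 5hmC declines outward from 5mC edges. The dip includes positions further out in other 5hmC peaks. The ratio is 0.865 without those of the same library and 0.816 without those of either.

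Seen from 5mC, the picture had another form. 5hmC covered 21.2% and 21.8% of 5mC peak centres, 20.8% ± 0.543 of their edges and 19.0% ± 0.684 of the positions 100 bp outside (SD, n = 2 each). It then fell to 13.1% ± 0.284 at 500 bp and 11.9% ± 0.170 at 2 kb (SD, n = 2 each), without a minimum near the edge. Of the 5hmC regions on 5mC, 18410 held 1 such region, 1931 held 2 and 292 held 3 or more. At the median, 40.5% of the 5hmC region was 5mC. The stretches covered in all 4 libraries numbered 22374, with a median of 280 bp, and made up 8.48% of the bases that the 5hmC libraries share and 23.8% of those that the 5mC libraries share. The widest were 3248 bp on chromosome 10 from 79438257 to 79441504, 2256 bp on chromosome 8 from 74208867 to 74211122, and 2155 bp on chromosome 8 from 73436745 to 73438899. They were followed by 2052 bp on chromosome 2 from 30110803 to 30112854 and 2034 bp on chromosome 19 from 5653827 to 5655860.

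Wide regions of a single mark existed as well. The widest 5hmC regions of both libraries without any 5mC peak were 9983 bp on chromosome 1 (90152375 to 90162357), of which replicate 2 covered 45.6%, and 8709 bp and 7631 bp on chromosome 6 (134126408 to 134135116 and 133996762 to 134004392), which each library covered to at least 93.8%. The widest 5mC regions without 5hmC were 4298 bp on chromosome 17 (39979879 to 39984176), 3555 bp on chromosome 8 (111472191 to 111475745) and 2817 bp on chromosome 11 (3091586 to 3094402). No peaks were filtered for repeated sequence, here or among the widest peaks above. Whether these places are single-copy was not tested.

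Overlap rose with the score and the width of a peak. In the lowest 10% of 5hmC scores, 12.2% and 11.1% of peaks lay on 5mC, and in the highest 10%, 39.9% and 37.9%. High-scoring 5hmC peaks were wider (median 1558 and 1450 bp against 558 and 518 bp). The ratio to moved peaks, which keep their width, also went from 1.77 and 1.70 to 2.35 and 2.37. For 5mC peaks the same step led from 18.9% and 19.4% on 5hmC to 36.0% and 35.9%, and the ratio from 1.90 and 1.95 to 2.54 and 2.61. By width the shares rose from 9.24% and 7.88% in the narrowest 10% of 5hmC peaks to 37.8% and 36.0% in the widest. The ratio to moved peaks was 1.67 and 1.51 in the narrowest, and between 1.98 and 2.10 in the 7 widest of 10 width classes of replicate 1 (1.91 to 2.12 in replicate 2). For 5mC peaks the shares rose from 12.8% and 13.4% in the narrowest 10% to 39.8% and 39.0% in the widest, and the ratio from 1.54 and 1.68 to 2.48 and 2.52.

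The distance from one mark to the other was unequal in the 2 directions. A 5hmC peak was at a median of 3057 bp and 3215 bp from the nearest 5mC region, and 90% of 5hmC peaks had one within 19337 bp and 19873 bp. A 5mC peak was at a median of 4413 bp and 4217 bp from the nearest 5hmC region, but the distance within which 90% had one was 159457 bp and 152279 bp. Farther than 100 kb from the other mark were 0.391% and 0.435% of 5hmC peaks and 13.6% and 13.2% of 5mC peaks. With peaks moved by 100 to 1000 kb, these shares were 3.30% and 3.37% for 5hmC and 21.3% and 20.9% for 5mC. In place, 5hmC nearly always had 5mC within 100 kb, while many 5mC peaks had no 5hmC that near. The moved peaks were unequal in the same direction, so the inequality is in part given by the arrangement of each list. When the peaks were moved by 100 to 1000 kb, the medians grew by 1.83 ± 0.0455 times for 5hmC and 2.58 ± 0.0492 times for 5mC (SD, n = 2 each). Leaving out a library of the other mark removes the need for 2 calls and shortens the distance: the median from 5hmC was 1906.5 bp without 5mC replicate 1 and 2232.75 bp without 5mC replicate 2. The median from 5mC was 2803 bp without 5hmC replicate 1 and 2796.5 bp without 5hmC replicate 2.

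Among peaks that did not overlap, 15.5% of 5hmC peaks in each library lay less than 1 kb from the other mark, against 12.3% in each when moved by 100 to 1000 kb. Of the 5mC peaks without overlap, 13.0% and 13.1% did, against 11.1% and 11.2% when moved. The excess depended on the distance of the moves: by 10 to 50 kb, the moved values were 15.2% and 15.1% for 5hmC and 13.9% and 14.2% for 5mC, the latter above the values in place.

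**Figure D4:**
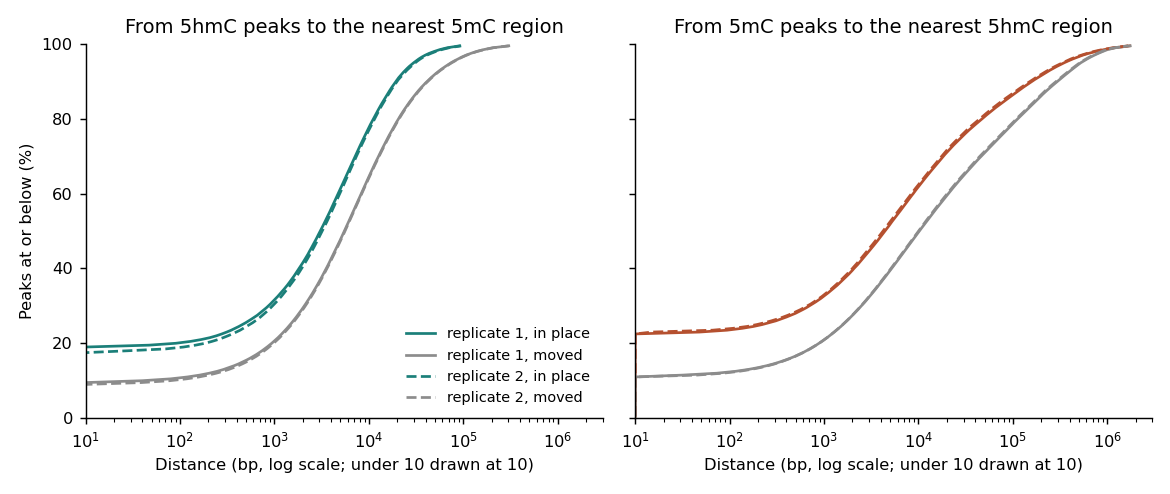
Cumulative share of peaks (%, y axis) by distance in bp (x axis, log scale) to the nearest region of the other mark, in place (coloured) and pooled over 8 moves of 100 to 1000 kb (grey), for each WT library. The 5mC curves on the right reach 90% in place at 159457 and 152279 bp, the 5hmC curves on the left at 19337 and 19873 bp.

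Over bins of 100 kb, 12407 of 24727 held both marks, 7517 held 5mC without 5hmC, 248 held 5hmC without 5mC and 4555 held neither. Each 5hmC library had a peak in 48.5% and 48.9% of bins, and each 5mC library in 75.7% and 76.3%. 5hmC was concentrated in fewer of them: the densest 10% of bins held 57.4% ± 0.206 of the covered length of 5hmC and 42.8% ± 0.225 of that of 5mC (SD, n = 2 each). Of the 2473 densest bins of a 5hmC and a 5mC library, 49.4% to 51.3% were the same in the 4 pairings, against 92.6% between the 5hmC libraries and 86.8% between the 5mC libraries.

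Coverage of the marks rose together across bins. Over the 20172 bins with a peak, Pearson's r between a 5hmC and a 5mC library was 0.629 to 0.643 in the 4 pairings, and the Spearman correlation 0.676 to 0.691. Replicates reached an r of 0.989 within 5hmC and 0.973 within 5mC. Bins of a library share its depth and the base composition and mappability of the genome, so these values are a description without a p. The correlation grew with the size of the bin. Over all bins, with or without peaks, its mean was 0.222 at 1 kb, 0.427 at 10 kb, 0.665 at 100 kb, 0.849 at 1000 kb and 0.914 at 5000 kb. Where bins without a peak were left out, it was -0.136 at 1 kb and 0.258 at 10 kb. The filter on empty bins thus decides the sign at 1 kb. On whole chromosomes r was 0.931 to 0.936 and the Spearman correlation 0.949 over the 19 autosomes.

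How 5mC rose with 5hmC depended on the mark by which bins were ranked. Bins with 5mC and no 5hmC had 0.740% covered by 5mC on average. In the 10% of 5hmC-bearing bins with the least 5hmC (mean 0.302%), 5mC covered 1.24%, and in the 10% with the most (mean 32.1%), 6.49%. The ratio of 5mC to 5hmC coverage went from 4.13 to 0.202, a fall that ranking by the denominator favours. Ranked by 5mC, mean 5hmC coverage rose from 0.248% in the 10% of bins with the least 5mC (mean 0.121%) to 18.6% in the 10% with the most (mean 8.13%). There the ratio of 5hmC to 5mC was 2.04 at the low end and 2.29 at the high end, but it was not constant between them. From the low end it fell to 1.496 in class 2 of 10, rose to 2.877 in class 7 and declined again. In the 10% of bins with the least 5mC, 83.5% had no 5hmC at all, and in the 10% with the most, 2.76%.

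**Figure D5:**
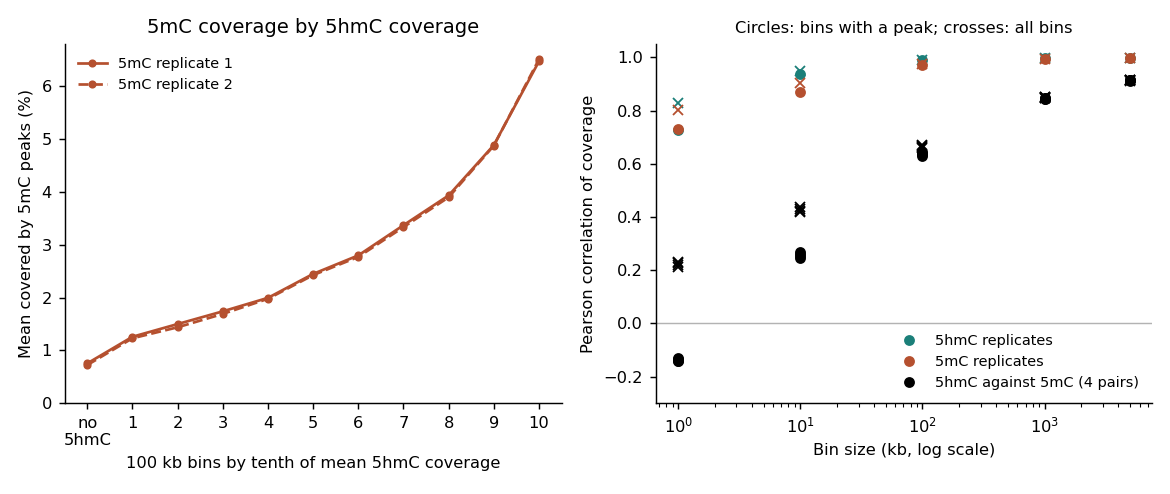
Left, mean share of a 100 kb bin covered by 5mC peaks (%, y axis from 0) in bins without 5hmC and in 10 equal classes of rising mean 5hmC coverage, for each 5mC library. Right, Pearson correlation of coverage by bin size in kb (log scale) for the 4 pairings of the marks and for replicates, with bins that hold a peak (circles) or all bins (crosses); the marks climb from 0.222 to 0.914 over all bins while replicates stay at or above 0.803 over all bins.

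The marks also differed in how far the coverage of bins stayed correlated along the chromosome (Pearson's r). The correlation of a bin with its neighbour at 0.1 Mb was 0.670 and 0.666 for 5hmC and 0.701 and 0.712 for 5mC. At 1 Mb it had fallen to 0.207 and 0.204 for 5hmC, and to 0.410 and 0.421 for 5mC. At 5 Mb it was 0.0616 and 0.0621 against 0.165 and 0.170. By this measure, coverage stayed correlated over longer distances for 5mC than for 5hmC, in both libraries of each mark. Pearson's r depends strongly on the densest bins, and no rank correlation is given. Empty stretches over 1 Mb, by contrast, numbered 352 for 5hmC and 19 for 5mC.

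Chromosomes kept nearly the same order for both marks. Chromosome 11 was the most covered, by 5hmC to 7.42% and 7.35% and by 5mC to 2.58% and 2.61%. The least 5hmC was on chromosome 14 (3.04% in each library) and the lowest mean of 5mC on chromosome 3 (1.25% and 1.20%). Their neighbours in the order were close: chromosome 3 had 3.18% and 3.08% of 5hmC, and chromosome 14 had 1.24% and 1.22% of 5mC, the lowest in replicate 1. Covered by 5hmC per length covered by 5mC, the autosomes ranged from 2.24 on chromosome 8 to 2.85 on chromosome 11. The share of 5mC peaks on 5hmC ran from 17.0% on chromosome 18 to 29.0% on chromosome 17, and the share of 5hmC peaks on 5mC from 13.8% on chromosome 13 to 21.8% on chromosome 15. Within single chromosomes the mean r over 100 kb bins lay between 0.540 on chromosome 13 and 0.729 on chromosome 10.

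Which bins favour a mark was tested with limma, 5hmC against 5mC. The value was the coverage of a bin relative to the mean of its library over the bins tested (log2 after adding 500 bp). Of the 18266 bins with a peak in at least 2 of the 4 libraries, 13849 (75.8%) passed at an adjusted p under 0.05: 3786 (20.7%) with relatively more 5hmC and 10063 (55.1%) with relatively more 5mC. In 5708 of the latter no 5hmC peak was called, and in 67 of the former no 5mC peak. Such bins entered the test only through the mark that is high there, and their p-values support nothing. Among the 10935 bins with a peak in all 4 libraries, 7506 (68.6%) passed, 2945 (26.9%) higher in 5hmC and 4561 (41.7%) higher in 5mC. The means were then taken over these bins alone, so this split and the one above do not share a centre. The 3786 bins held 63.0% of the covered 5hmC in each library and 27.6% and 28.0% of the covered 5mC. They were picked for relatively more 5hmC in these same libraries, so the larger share of 5hmC follows from the choice. On chromosome 11, 28.8% of bins were on the 5hmC side, the highest share of the autosomes, and on chromosome 14 15.2%, the lowest. The split depends on the centre chosen: on an arcsine scale with each library centred on its median, 7052 bins were higher in 5hmC and 7113 in 5mC. Leaving out a 5mC library lowered the number of bins tested, to 12517 without replicate 1 and 12488 without replicate 2. Bins with 5mC alone then no longer reach 2 libraries. The median log2 difference, 5hmC minus 5mC, went from -1.03 with all 4 libraries to -0.339 and -0.347. The cause of the change in calls was not tested.

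Among bins with relatively more 5hmC, the largest differences were on chromosome 3 from 60300001 to 60400000, with 31.3% and 36.1% covered by 5hmC and no 5mC peak, and on chromosome 7 from 108200001 to 108300000, with 22.4% and 22.5% and no 5mC peak. A bin on chromosome 7 from 97200001 to 97300000 had 14.6% and 17.6% and no 5mC peak. Chromosome 3 from 21800001 to 21900000 had 22.8% and 22.9%, with 2 peaks in 5mC replicate 2 alone. Chromosome 5 from 136900001 to 137000000 had 29.9% in each library, with 2 peaks in each 5mC library. There 35 to 37 peaks of 5hmC stood against 2 of 5mC, a log2 difference of 3.67 ± 0.15 (standard error; limma, adjusted p = 8.81e-05).

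On the other side, the 5 largest differences were in bins with 21 to 31 5mC peaks per library and no 5hmC peak. They lay on chromosome 8 from 46100001 to 46200000 (12.8% and 11.96% covered by 5mC), chromosome 4 from 139900001 to 140000000 (10.6% in each library), 152800001 to 152900000 (8.44% and 9.77%) and 150800001 to 150900000 (9.09% and 8.94%), and chromosome 15 from 83700001 to 83800000 (8.89% and 8.92%). No p-value or fold is given where a mark had no peak, since both depend on the filter and on the 500 bp added.

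Some bins were rich in both marks. The highest product of the 2 coverages was on chromosome 8 from 123000001 to 123100000, with 82.1% and 79.9% under 5hmC and 15.8% and 14.7% under 5mC. It contains the widest 5hmC peaks of both libraries. Next were chromosome 10 from 80700001 to 80800000 (59.0% and 55.0% of 5hmC, 21.2% and 20.8% of 5mC) and chromosome 5 from 125500001 to 125600000 (57.9% and 55.6%, 20.9% and 20.6%). Chromosome 10 from 79400001 to 79500000 (55.8% and 58.2%, 17.6% and 19.4%), which holds the widest stretch covered in all 4 libraries, and chromosome 4 from 141000001 to 141100000 (50.6% and 54.2%, 19.7% and 19.4%) followed.

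The overlap in WT was set beside the knockouts. With each genotype's own lists, 5hmC peaks lay on 5mC peaks 1.95 to 2.04 times as often in place as moved in the 4 WT pairings, 1.85 to 1.90 times in the 4 DKO pairings and 1.88 times in both Tet2KO pairings, which share 1 5mC library. Against the WT 5mC regions, with every 5hmC peak reduced to 200 bp around its centre, the WT libraries had a ratio of 3.04 and 2.91. The Tet2KO libraries had 2.46 and 2.34, and the DKO libraries 2.46 and 2.42. WT thus stood above the 4 knockout libraries (mean 2.98 against 2.42). With peaks at full width the difference was smaller (mean 1.99 against 1.76). Both gave an exact permutation p of 0.0667 (adjusted 0.200 over 12 tests). That is the smallest value 15 splits allow, so neither difference could pass. The reference regions came from WT, so they match the WT libraries alone. The correlations over the 100 kb bins with a peak in either library of a pairing, a smaller set than above, overlapped between genotypes, with 0.620 to 0.635 for WT pairings, 0.610 and 0.629 for Tet2KO pairings and 0.620 to 0.635 for DKO pairings.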

How the data were processed

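Each library has 1 peak list deposited by the authors, without pooling: chromosome, start, end and a score per peak. The score deposited by the authors has a lowest value of 50, and peaks were ranked by it only within a list. Across lists, its medians are given and the share of peaks with at least 100 was 1 of the 10 quantities tested. In addition, 1 alternative used a minimum of 100. Per the submitters' processing notes, Bowtie 0.12.9, MACS 1.4.2 and build mm9 were among the tools and builds, with no role given; the peak names carry MACS. Whether a control library was used and duplicates removed is not given in those notes. Positions are counted from 1.

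Peaks of a mark were merged on overlaps of at least 1 bp, and regions with a peak in both WT libraries were the reference. Moves were 100, 200, 500 and 1000 kb to either side, and peaks moved past the last peak of a chromosome were left out. Chromosome length was the highest peak end in any list. Values per library were tested by permutation (exact, two-sided) and bins by limma 3.58.1 (R 4.3.3, Python 3.11.15), tested on simulated data. Nothing in the labels ties the replicates to different animals, and a p-value here reflects the spread of the libraries, which may be technical. Bins and regions named are the 5 with the largest difference to either side, the 5 densest in both marks, the 5 widest stretches in all 4 libraries and the 3 widest regions of 1 mark alone. The runs, gaps, lags and chromosomes named were chosen as the extremes after their values were seen. Members and tests were chosen with earlier results of these data known. No annotation or genome of mm9 was used, so planned tests of genes, promoters and CpG content were not run, and regions are given by position.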

Additional observations from a re-analysis of the deposited data

Results flagged for a closer look

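Chromosome X lay outside the comparisons, which used the autosomes. It held 445 and 449 peaks in the 5hmC libraries and 1544 and 1679 in the 5mC libraries. Per Mb, the autosomes had 19.4 and 20.2 times as many 5hmC peaks as X, and 5.47 and 5.59 times as many 5mC peaks. On X, 15.3% and 15.4% of 5hmC peaks lay on 5mC, and 4.02% and 4.53% of 5mC peaks on 5hmC. The labels give no sex for these mice, and the copy number of X in the libraries was not tested.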

How the results depend on the processing

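Width, covered length and spacing kept their direction under all alternatives run. The ratio of peak numbers (5hmC over 5mC) turned from 0.993 to 1.02 without 5hmC replicate 1 and 1.048 without 5mC replicate 2. With a score of at least 100, 15.1% of 5hmC peaks lay on 5mC (2.31 times moved) and 16.7% of 5mC peaks on 5hmC (2.37 times). Distances were then 5815 and 11319.5 bp (moved over in place 1.91 and 2.50), r 0.546, the Spearman correlation 0.549 and the edge ratio 0.558. With equal numbers of top peaks, distances were 3280 and 4603.75 bp, 22.2% of 5mC peaks lay on 5hmC and the Spearman correlation was 0.677. The Spearman correlation was also 0.677 with peak centres counted, and with chromosome X the distance from 5mC was 4466.5 bp. Requiring 50% of the peak to be covered gave 8.73% (3.79 times) for 5hmC and 21.5% (2.48 times) for 5mC. The centre inside the other mark gave 11.98% (3.61 times) and 21.5% (2.49 times), and 200 bp around centres 11.3% (3.71 times) and 10.9% (3.56 times). With the other mark in at least 1 library the values were 27.5% (1.93 times) and 29.7% (2.00 times), with 78.1% of 5mC peaks wholly inside. All alternatives for the edges and for 5mC peaks wholly inside were chosen after seeing the data. The edge ratio was 0.865 over positions outside the 5hmC peaks of the same library and 0.816 outside those of either. Moves of 10, 20 and 50 kb gave ratios of 1.59 and 1.63 for overlap and 1.25 and 1.33 for distance. From centre to centre distances were 3758 and 4956 bp (ratios 1.69 and 2.37).

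Correlations were 0.258 (Spearman 0.0959) in bins of 10 kb, 0.846 (Spearman 0.898) in bins of 1 Mb and 0.665 (Spearman 0.737) with all bins. Bins called by limma numbered 56837 at 10 kb (21390 higher in 5hmC, 35447 in 5mC), 2019 at 1 Mb (611 and 1408), and 7506 where a peak in all 4 libraries was required (4561 higher in 5mC). The arcsine scale gave 7052 higher in 5hmC. Other bin sizes and filters change the number of bins tested and the mean to which coverage is related. The cause of the other shifts was not tested.

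Leaving out each library in turn gave 17.7 to 23.9% of 5hmC on 5mC (1.96 to 2.02 times), 22.5 to 25.7% of 5mC on 5hmC (2.03 to 2.09 times), and distances of 1906.5 to 3215 bp (ratios 1.80 to 1.99) and 2796.5 to 4413 bp (ratios 2.55 to 2.71). Ratios of peak number were 0.943 to 1.048, r 0.623 to 0.639, the Spearman correlation 0.660 to 0.686, the edge ratio 0.532 to 0.607 and 5mC wholly inside 73.0 to 85.2%. Called bins were 6454 to 13590 (2822 to 3546 higher in 5hmC, 3632 to 10094 in 5mC).

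Between the marks, libraries of equal replicate number did not deviate together (correlation of deviations -0.00347). This cannot show whether they came from the same animals, since deviations within each assay may be technical. A replicate block gave 14084 called bins (3785 and 10299). Unknown depth limits every count of peaks, and a place without a peak is not shown to lack the mark.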

Other observations

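On chromosome Y, each 5mC library had 3 peaks and neither 5hmC library had any, so that no comparison of the marks was made there.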
